A study of Mus musculus with 6 samples.

Results

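The 27 genes described here encode enzymes of cholesterol synthesis and the machinery that switches those enzymes on through the transcription factor SREBP2. They were taken by gene symbol from a list of pathway members, and all 27 were found among the 54347 gene rows of the expression table. RNA was measured in 6 libraries of cultured microglia, the resident macrophages of the brain, taken from C57BL/6 littermates that were either Plcg2+/+ (wild type, 3 libraries) or Plcg2-/- (knockout, 3 libraries). Forebrains of pups 2 to 3 days old, freed of meninges, were grown as mixed glia, with 10% serum and the macrophage growth factor GM-CSF at 5 ng/mL. Microglia were shaken off the astrocyte layer on day 12 to 13 and kept for at least 72 h at 1% serum and 0.5 ng/mL of the factor, so cells of both genotypes had serum, a source of cholesterol, throughout. No other agent is named in the labels, and they give neither the deleted part of Plcg2 nor whether a library holds the cells of 1 pup. A library is called by its genotype and its number, such as Plcg2-/- 2. Values are TPM, transcript levels per unit of transcript length, brought to one total per library.

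Cholesterol synthesis starts from acetyl-CoA. The mevalonate arm makes isoprenoid building blocks, which also serve protein prenylation, dolichol and ubiquinone. Squalene synthase commits them to sterols, squalene is oxidised and folded into lanosterol, and a series of demethylation, reduction and isomerisation steps turns lanosterol into cholesterol. When sterol in the endoplasmic reticulum is low, SCAP carries SREBP2 to the Golgi, where 2 proteases release its DNA-binding part, which switches on most of the enzyme genes together. INSIG proteins hold SCAP back when sterol is high. Microglia and other macrophages take up cholesterol from lipoproteins and debris as well as making it.

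Plcg2, the deleted gene, stood between 39.7 and 54.9 TPM in Plcg2+/+ and between 16.05 and 16.7 TPM in Plcg2-/- libraries, which checks the labels. TPM carries no sequencing depth, so the counting error behind each value is unknown. Mitochondrially encoded transcripts took 13.6 to 17.3% of all TPM in Plcg2+/+ and 5.00 to 8.68% in Plcg2-/- libraries. The median log2 fold change of all 12652 genes tested was 0.19 on deposited TPM, 0.03 after median-of-ratios scaling and 0.07 after rescaling without mitochondrially encoded genes, so fold changes are best read against those values. The sex of the cultures differed between genotypes: the Y-linked Ddx3y stood at 22.9 and 30.0 TPM in Plcg2+/+ 2 and 3 and 17.0 TPM in Plcg2-/- 1, and at most 0.229 TPM in the other 3 libraries, while the X-inactivation transcript Xist was at 18.4 TPM in Plcg2-/- 1 as well. Of the 10 microglia markers examined, Csf1r stood at 503 to 780 TPM and C1qa at 368 to 2174 TPM. The homeostatic microglia markers Tmem119 and Cx3cr1 were at most 1.47 and 2.92 TPM. Of the 9 markers tested, 3 were called higher, with means of 19.0 and 99.6 TPM for Aif1, 5.68 and 23.8 TPM for P2ry12 and 2.80 and 37.3 TPM for Fcrls in wild type and knockout (limma adjusted p = 0.0333, 0.0166 and 0.000922). Called lower were Itgam, at 429 and 81.8 TPM, and Cx3cr1 (limma adjusted p = 0.000946 and 0.0203). Calls in either direction made up 55.6% of the 9 tested microglia markers, against 20.9% of all tested genes. Summed over each list, microglia markers stood at 2389 to 3830 TPM in Plcg2+/+ and 2730 to 4486 TPM in Plcg2-/-, 8 astrocyte markers at 30.4 to 60.5 and 43.0 to 59.6, 9 oligodendrocyte lineage markers at 56.9 to 123 and 56.0 to 93.5, while 5 neuronal markers summed to at most 9.82 TPM in any library. The astrocyte-defining Aqp4 and Gja1 were at most 1.25 and 0.720 TPM, and 9 fibroblast and vessel markers summed to at most 4.01 TPM, with Lum at 0 in 4 of the 6 libraries. Of 4 astrocyte markers tested, 1 was called, Aldh1l1, higher at means of 12.3 and 28.3 TPM (limma adjusted p = 0.0282). Of 6 oligodendrocyte lineage markers tested, 1 was called, the precursor marker Cspg4, lower at 9.62 and 0.471 TPM (limma adjusted p = 0.00141). Neither gene overlapped between genotypes. These shares were 25% and 16.7%, against 20.9% of all tested genes. Log2 fold changes were positive for 2 and negative for 2 of the astrocyte markers. They were positive for 1 and negative for 5 of the oligodendrocyte lineage markers. The part of these marker differences in the results on the 27 genes was not tested. In bulk RNA, fewer cells of a type and less RNA per cell cannot be told apart.

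Promoters of some of the 27 genes are shown first. SREBP2 acts through short DNA elements close to the start site, beside the factor NF-Y. Of those printed, Hmgcs1 and Mvk are shown for their elements and were not called in the genotype comparison. RefSeq start-site windows (GRCm38.p6, 250 bases before to 50 after the start) were available for 23 of the 27 genes. The NF-Y box CCAAT, on either strand, was in a window of 19 of the 23 genes (82.6%), against 43.0% of 9258 tested genes with a window. By window, it was in 19 of the 29 windows of these genes, against 37.4% of all 32851 windows. The strict sterol regulatory element TCACNCCAC was in 1 of 23 genes (4.35%), Hmgcs1, against 1.37% of tested genes. By window, this was 1 of 29, against 1.24% of all windows. The E-box CACGTG was in 5 of 23 genes (21.7%), against 12.1% of tested genes. By window, this was 6 of 29, against 7.15% of all windows. All were searched on both strands, and a sterol element and an E-box can overlap, since one ends and the other begins with CAC. The 250 bases before the start are printed 5′ to 3′ along the gene, with matches to the sterol regulatory element and to the NF-Y box on either strand in capitals. Hmgcs1 (chr13:119690101-119690350, plus strand) held the sterol element, with its first base 137 bases before the start and NF-Y boxes on either side. Mvk (chr5:114444019-114444268, plus strand) held 5 NF-Y boxes, the most of any of the 23 genes. Ggps1 (chr13:14063489-14063738, minus strand), Cyp51 (chr5:4104698-4104947, minus strand) and Dhcr7 (chr7:143829964-143830213, plus strand, the third of its 3 RefSeq start sites and the only one with an NF-Y box) are the genes called in the genotype comparison with or without pairing of the libraries.
Hmgcs1: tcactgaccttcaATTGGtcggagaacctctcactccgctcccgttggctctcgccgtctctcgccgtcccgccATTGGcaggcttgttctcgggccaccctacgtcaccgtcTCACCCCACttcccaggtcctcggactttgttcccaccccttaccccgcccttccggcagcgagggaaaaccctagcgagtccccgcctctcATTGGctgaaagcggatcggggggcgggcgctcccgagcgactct
Mvk: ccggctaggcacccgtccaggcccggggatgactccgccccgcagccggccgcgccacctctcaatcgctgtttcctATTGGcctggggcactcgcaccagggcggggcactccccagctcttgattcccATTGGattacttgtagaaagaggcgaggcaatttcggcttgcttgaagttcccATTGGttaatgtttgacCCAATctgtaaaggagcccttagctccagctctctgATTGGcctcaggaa
Ggps1: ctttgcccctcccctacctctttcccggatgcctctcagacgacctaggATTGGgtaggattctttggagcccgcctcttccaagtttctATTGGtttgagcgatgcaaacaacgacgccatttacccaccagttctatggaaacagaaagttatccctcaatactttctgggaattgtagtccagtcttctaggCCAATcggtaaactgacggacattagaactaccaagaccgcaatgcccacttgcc
Cyp51: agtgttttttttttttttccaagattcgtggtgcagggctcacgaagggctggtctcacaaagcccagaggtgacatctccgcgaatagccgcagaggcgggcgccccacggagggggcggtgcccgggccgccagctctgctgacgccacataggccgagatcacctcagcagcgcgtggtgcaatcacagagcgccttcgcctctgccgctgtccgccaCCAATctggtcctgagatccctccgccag
Dhcr7: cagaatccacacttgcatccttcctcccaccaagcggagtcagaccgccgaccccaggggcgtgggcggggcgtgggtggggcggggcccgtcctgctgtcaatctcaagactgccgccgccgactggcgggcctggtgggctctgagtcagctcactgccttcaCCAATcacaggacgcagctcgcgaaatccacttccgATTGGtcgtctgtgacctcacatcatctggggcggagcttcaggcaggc
Dhcr7 had NF-Y boxes 85 and 49 bases before this start and Cyp51 had 1, 29 bases before its start. The box does not set the called genes apart, since 19 of the 23 genes (82.6%) carried it. Dhcr7 carried it at only 1 of its 3 start sites. A match is a run of letters and not a measured binding site.

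Libraries of the same genotype differed more in these 27 genes than in most tested genes. Msmo1, the C4-methylsterol oxidase, was the most abundant of them by genotype mean, with 139, 113 and 159 TPM in Plcg2+/+ 1, 2 and 3 and 145, 61.1 and 142 TPM in Plcg2-/- 1, 2 and 3. Fdps, farnesyl diphosphate synthase, had 80.3, 59.2 and 134 TPM in Plcg2+/+ and 143, 53.0 and 145 TPM in Plcg2-/-. In both genes and in both genotypes the library numbered 2 was lowest, and the genotypes overlapped. The library numbered 2 was the lowest of both genotypes for 20 of the 27 genes (74.1%), against 27.7% of all tested genes. In Plcg2-/- alone it was lowest for 26 of 27, all but Insig2, and in Plcg2+/+ alone for 20 of 27, against 45.9% and 47.4% of all tested genes. Plcg2+/+ 3 was the highest wild-type library for 21 of 27 genes (77.8%, against 45.8%).

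**Figure D1:**
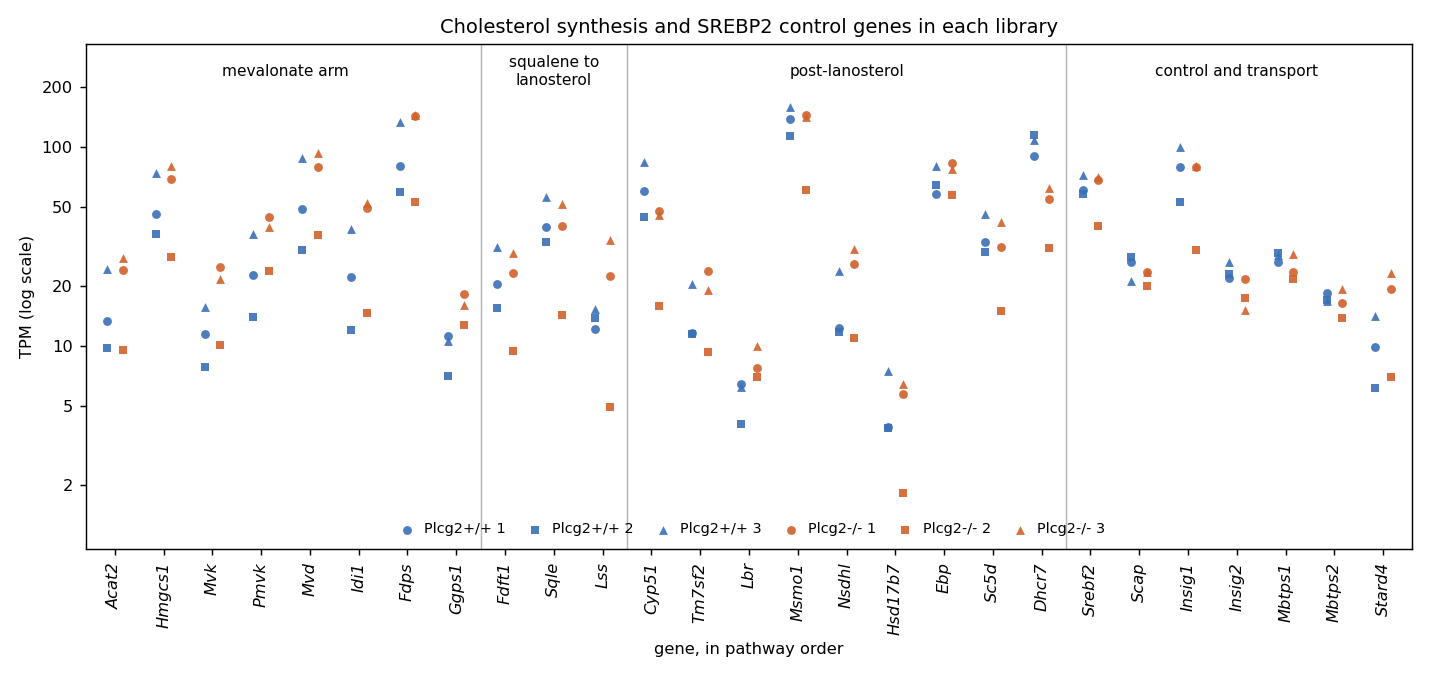
TPM on a log axis (vertical) of the 27 genes in pathway order (horizontal), 1 point per library, coloured by genotype and shaped by replicate number. The points of Plcg2-/- 2 lie at the bottom of their genotype for 26 of 27 genes, and the genotypes separate without overlap for Ggps1, Lbr, Dhcr7 and Insig2.

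This library effect was large. The mean deviation of the 27 genes from their genotype means, in log2(TPM + 1), was -0.05, -0.32 and 0.37 in Plcg2+/+ 1, 2 and 3 and 0.30, -0.70 and 0.40 in Plcg2-/- 1, 2 and 3, while the mean over all tested genes stayed between -0.06 and 0.06. The median within-genotype SD of the 27 genes was 0.57 on that scale, against 0.21 over all tested genes. Of the 27 genes, 18 lay in the top 10% of tested genes by that SD (at least 0.51), and 16 of these 18 were among the 20 enzymes. Lss, lanosterol synthase, and Idi1, isopentenyl diphosphate isomerase, had the highest SD of the 27, at 0.95 and 0.91. Scap, Mbtps1 and Mbtps2, which encode the SREBP escort and its 2 proteases, had the lowest, at 0.17, 0.16 and 0.17. The astrocyte marker sum was 37.4 TPM in Plcg2+/+ 2, between its other wild-type values, and 43.0 TPM in Plcg2-/- 2, the lowest of its genotype. The oligodendrocyte lineage sum was highest in the libraries numbered 2, at 123 TPM for the wild type and 93.5 TPM for the knockout. Microglia markers also summed highest in those libraries, at 3830 and 4486 TPM. The Y-linked Ddx3y differed between these 2 low libraries, with 22.9 TPM for the wild type against 0.213 TPM for the knockout. Whether cell makeup or sex had a part in this spread was not tested.

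**Figure D2:**
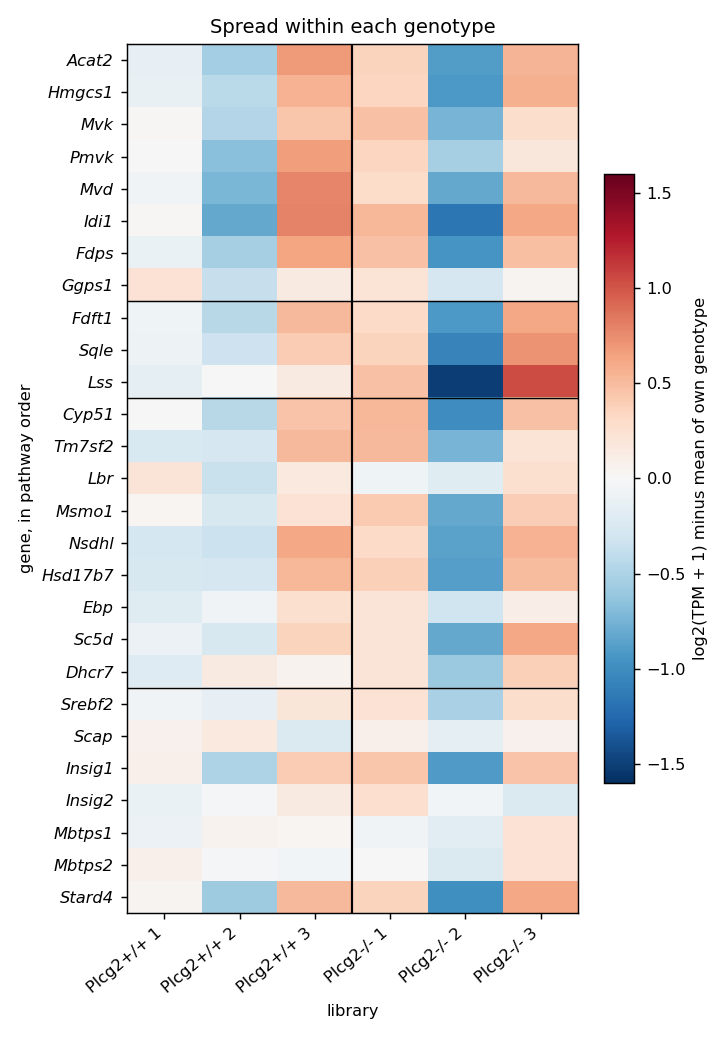
Deviation of each of the 27 genes (rows, pathway order) from its genotype mean in each library (columns), as log2(TPM + 1), on a colour scale. Plcg2-/- 2 is low for nearly the whole list, with a mean deviation of -0.70, whereas Plcg2+/+ 3 and Plcg2-/- 1 and 3 are mostly high.

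Setting knockout against wild-type libraries shows which of the 27 transcripts differed with loss of phospholipase C gamma 2. Dhcr7, a sterol reductase of the last steps, fell to 0.472 of its wild-type mean, and no other member passed the test. With limma on log2(TPM + 1) and Benjamini-Hochberg adjustment over all 12652 tested genes, 0 of the 27 genes were called higher and 1 was called lower (3.70%), at an adjusted p below 0.05. The background was 20.9% of all tested genes, 15.6% higher and 5.31% lower. At an unadjusted p below 0.05, 2 genes were higher and 2 lower, against 28.5% and 9.13% of all tested genes. With the replicate number as a block, limma called Ggps1 higher and Cyp51 and Dhcr7 lower, against a background of 26.1% (19.6% higher, 6.44% lower). The labels do not say what the replicate numbers mark. All 3 values of one genotype lay above those of the other for 2 genes higher in Plcg2-/- (Ggps1 and Lbr) and 2 lower (Dhcr7 and Insig2), against 32.4% and 10.9% of all tested genes (43.3% in either direction). The log2 fold change was positive for 14 and negative for 13 of the 27 genes, while 67.5% of all tested genes had a positive one. The median was 0.10 for the 27 genes and 0.19 for all tested genes, and -0.08 and 0.03 after median-of-ratios scaling.

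**Figure D3:**
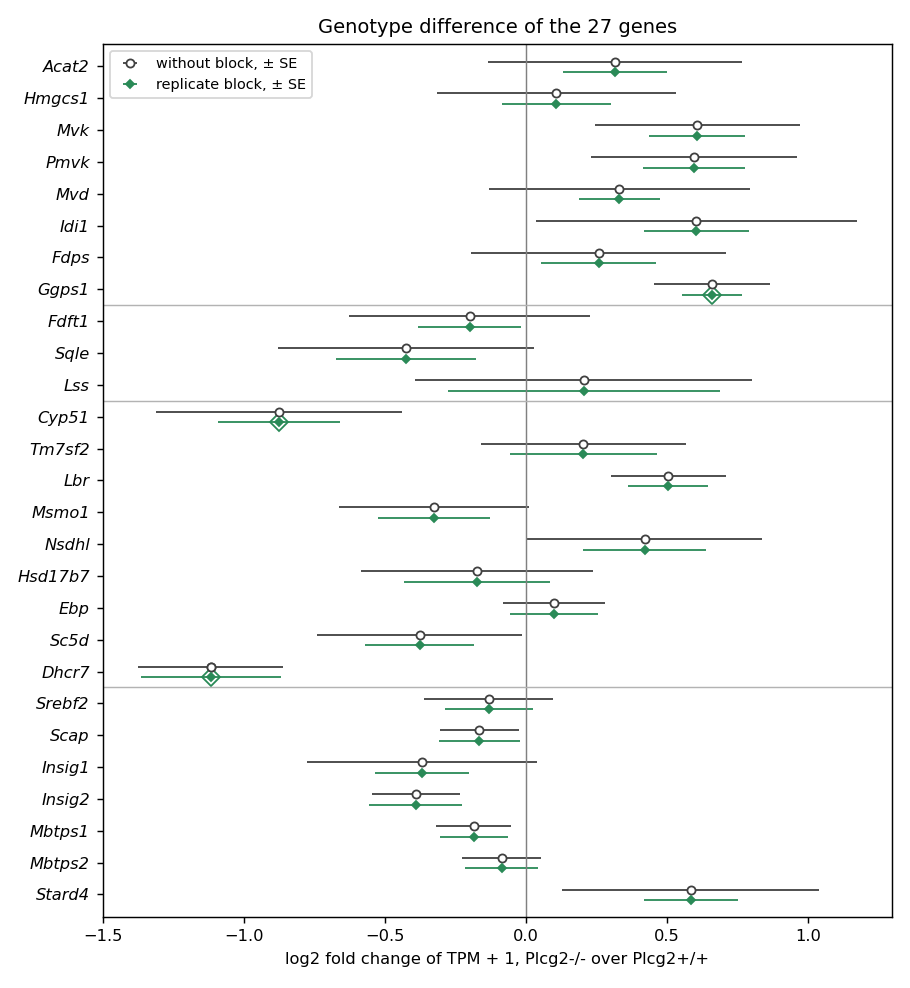
Log2 fold change of TPM + 1, Plcg2-/- over Plcg2+/+ (horizontal), of the 27 genes in pathway order (vertical), with limma's moderated SE as bars, without a block (circles) and with the replicate number as a block (diamonds). Open diamonds mark the genes called with the block, Ggps1, Cyp51 and Dhcr7, of which only Dhcr7 was also called without it, and the bars are shorter with the block for most genes.

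In the mevalonate arm, 8 of 8 genes had a positive log2 fold change on deposited TPM, with a median of 0.46 (0.29 after median-of-ratios scaling), and 0 of 8 passed the limma test without the block. Hmgcs1 turned negative under median-of-ratios scaling (-0.07), quantile normalization (-0.17) and rescaling without mitochondrially encoded genes (-0.02), and Fdps under quantile normalization (-0.02). Ggps1 makes geranylgeranyl diphosphate. It had 11.3, 7.07 and 10.5 TPM in Plcg2+/+ and 18.3, 12.7 and 16.04 TPM in Plcg2-/- libraries, and the genotypes did not overlap. Its log2 fold change was 0.66 ± 0.21 (SE; limma adjusted p = 0.0624). With the replicate block the gene rose (limma adjusted p = 0.0146), as it did when only genes averaging 5 TPM or more were tested (limma adjusted p = 0.0489). Ggps1 shares 257 exonic bases (5.44%) with Arid4b on the opposite strand, itself at a mean of 11.2 TPM, and the labels do not give the strandedness of the libraries, so reads of the shared stretch cannot be told apart.

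Mvk and Pmvk, the 2 kinases that phosphorylate mevalonate in turn, were higher in Plcg2-/- in all 3 pairs of equally numbered libraries. Mvk had 11.5, 7.84 and 15.7 TPM in Plcg2+/+ and 24.9, 10.1 and 21.6 TPM in Plcg2-/-, a log2 fold change of 0.61 ± 0.36 (SE; limma adjusted p = 0.265, and 0.0551 with the block). Pmvk had 22.6, 14.0 and 36.6 TPM against 44.6, 23.9 and 39.5 TPM, with 0.60 ± 0.37 (SE; limma adjusted p = 0.277, and 0.0665 with the block). In both genes the genotypes overlapped, since Plcg2-/- 2 lay below Plcg2+/+ 3. Idi1, which interconverts the isoprene units, had 22.2, 12.0 and 38.8 TPM in Plcg2+/+ and 49.2, 14.7 and 52.6 TPM in Plcg2-/-. Mvd, which decarboxylates mevalonate diphosphate, had 49.1, 30.4 and 88.4 TPM against 79.0, 36.2 and 93.0 TPM. For both, each knockout library lay above its wild-type counterpart and the genotypes overlapped (limma adjusted p = 0.473 and 0.637). Hmgcs1, which makes HMG-CoA, had 45.9, 36.7 and 73.9 TPM in Plcg2+/+ and 68.9, 28.1 and 80.4 TPM in Plcg2-/-. Its log2 fold change was 0.11, with a 95% confidence interval of -0.90 to 1.11, a range that holds changes in either direction. Acat2, a cytosolic acetoacetyl-CoA thiolase, ranged from 9.77 to 24.3 TPM in Plcg2+/+ and from 9.51 to 27.6 TPM in Plcg2-/- (limma adjusted p = 0.643), and its close copy Acat3 had a mean of 1.49 TPM. Fdps also did not pass (limma adjusted p = 0.712).

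Between squalene and lanosterol, 0 of 3 genes passed the limma test and the median log2 fold change was -0.20. Fdft1, squalene synthase, had 20.6, 15.6 and 31.5 TPM in Plcg2+/+ and 23.4, 9.40 and 29.4 TPM in Plcg2-/-, and Sqle, the squalene epoxidase, had 39.8, 33.3 and 56.1 TPM against 40.04, 14.2 and 51.7 TPM. The genotypes overlapped in both (limma adjusted p = 0.765 and 0.529), and the 95% confidence interval for Sqle ran from -1.50 to 0.65 in log2. Lss, which closes the ring system, was steady in Plcg2+/+, at 12.2, 13.8 and 15.3 TPM, but ran from 4.96 TPM in Plcg2-/- 2 to 22.4 and 34.0 TPM in Plcg2-/- 1 and 3. Its log2 fold change was 0.21 (limma adjusted p = 0.830). Without Plcg2-/- 2 it was 0.96 and passed (limma adjusted p = 0.0354), and without Plcg2-/- 3 it was -0.32, so single libraries set its value.

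After lanosterol, Dhcr7 fell, and 8 of 9 genes did not pass the limma test without the block. Dhcr7 reduces 7-dehydrocholesterol, also the precursor of vitamin D, to cholesterol. The gene (ENSMUSG00000058454.15) is protein coding and runs on the plus strand of GRCm38 chromosome 7 from 143823145 to 143848410. It had 89.8, 115 and 108 TPM in Plcg2+/+ and 54.9, 31.1 and 62.0 TPM in Plcg2-/- libraries. The lowest wild-type library lay above the highest Plcg2-/- library, so the genotypes did not overlap. The wild-type mean was 104.5 ± 13.2 TPM and the knockout mean 49.3 ± 16.2 TPM (SD, n = 3 each). In log2 units the gene fell by 1.12 ± 0.26 (SE), with a limma adjusted p = 0.0257, and 0.0304 with the block. Of the 20 enzymes, Dhcr7 alone was highest in Plcg2+/+ 2, the library in which 20 of the 27 genes were lowest. The log2 fold change stayed between -1.40 and -0.75 over 19 alternative settings, and the call held in 13 of them. It was lost without Plcg2+/+ 1, 2 or 3 (limma adjusted p = 0.0657, 0.0887 and 0.0564), without Plcg2-/- 1 (0.0762), with no filter on low values (0.0648) and with the level of Y-linked genes as a covariate (0.0733). Among the 3 libraries without Y-linked transcripts, Dhcr7 was 89.8 TPM in Plcg2+/+ 1 and 31.1 and 62.0 TPM in Plcg2-/- 2 and 3.

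Cyp51, the lanosterol 14-alpha-demethylase and the target of azole antifungals in its fungal form, had 60.5, 44.5 and 84.2 TPM in Plcg2+/+ and 47.7, 15.9 and 45.6 TPM in Plcg2-/-. Each Plcg2-/- library lay below the wild-type library of the same number, but the genotypes overlapped. Its log2 fold change was -0.88 ± 0.44 (SE) without the block (limma adjusted p = 0.188). With the replicate block the SE was 0.22 and Cyp51 fell (limma adjusted p = 0.0391). Without the block, its log2 fold change was -0.38 when Plcg2-/- 2 was left out (limma adjusted p = 0.346) and -0.60 without both libraries numbered 2 (limma adjusted p = 0.115). Lbr, which carries a sterol C14-reductase domain besides its role as a lamin receptor of the nuclear membrane, had 6.45, 4.03 and 6.19 TPM in Plcg2+/+ and 7.76, 7.01 and 9.96 TPM in Plcg2-/-. Its genotypes did not overlap, yet it did not pass (log2 fold change 0.50 ± 0.20 (SE), limma adjusted p = 0.120, and 0.0551 with the block), and without Plcg2+/+ 2 the log2 fold change was 0.32. Tm7sf2, the other C14-reductase, had 11.6, 11.5 and 20.5 TPM against 23.9, 9.34 and 19.2 TPM, overlapped (limma adjusted p = 0.717) and shares 532 exonic bases (12.1%) with Vps51, at a mean of 60.4 TPM, on the same strand.

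The remaining post-lanosterol enzymes overlapped between genotypes. Msmo1 and Nsdhl, which remove the C4 methyl groups together with Hsd17b7, had log2 fold changes of -0.33 and 0.42 (limma adjusted p = 0.516 and 0.495). Nsdhl, on the X chromosome, had 12.3, 11.7 and 23.8 TPM in Plcg2+/+ and 25.7, 10.9 and 30.7 TPM in Plcg2-/-. Hsd17b7, the 3-ketosterol reductase, was the lowest of the 27 genes, at 3.89 to 7.50 TPM in Plcg2+/+ and 1.82 to 6.44 TPM in Plcg2-/- (limma adjusted p = 0.788). Ebp, the sterol isomerase and also X-linked, had the smallest within-genotype SD of the 20 enzymes, at 58.4, 64.2 and 80.3 TPM against 83.3, 57.4 and 77.5 TPM (log2 fold change 0.10, 95% confidence interval -0.33 to 0.53). Its sign turned under median-of-ratios scaling (-0.08). Sc5d, the desaturase that makes 7-dehydrocholesterol, the substrate of Dhcr7, had 33.3, 29.6 and 45.9 TPM in Plcg2+/+ and 31.5, 15.0 and 42.1 TPM in Plcg2-/-. It was lower in all 3 numbered pairs, with a log2 fold change of -0.38 ± 0.36 (SE; limma adjusted p = 0.481).

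Of the control and transport genes, 0 of 7 passed the limma test, and 6 of 7 had a negative log2 fold change. Srebf2, which encodes SREBP2 itself, had 61.1, 58.0 and 72.7 TPM in Plcg2+/+ and 68.5, 40.1 and 70.8 TPM in Plcg2-/-, and the genotypes overlapped. Its log2 fold change was -0.13, with a 95% confidence interval of -0.67 to 0.41 (limma adjusted p = 0.708). Scap, Mbtps1 and Mbtps2 were steady, at 19.9 to 28.1 TPM for Scap, 21.7 to 29.2 TPM for Mbtps1 and 13.8 to 19.3 TPM for Mbtps2 over all 6 libraries, with 95% confidence intervals that all lay between -0.50 and 0.25 in log2. Mbtps2 shares 28.4% of its exonic bases with Yy2, at a mean of 1.80 TPM, on the same strand. Messenger levels do not measure the cleavage that activates SREBP2.

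Insig1 and Insig2, the 2 INSIG genes, differed in their pattern. Insig1, itself a target of SREBP2, had 79.6, 53.0 and 99.97 TPM in Plcg2+/+ and 79.2, 30.3 and 80.0 TPM in Plcg2-/-, low in the libraries numbered 2 like the enzymes (log2 fold change -0.37, limma adjusted p = 0.544). Insig2 had 22.0, 23.2 and 26.4 TPM in Plcg2+/+ and 21.8, 17.4 and 15.1 TPM in Plcg2-/-, without overlap, and was the single gene for which Plcg2-/- 2 was not the lowest of its genotype. Its log2 fold change was -0.39 ± 0.16 (SE; limma adjusted p = 0.116), and after quantile normalization it was -0.61 and passed (limma adjusted p = 0.0356). Stard4, a soluble sterol carrier, was the 1 member of this group with a positive log2 fold change, 0.58 ± 0.46 (SE; limma adjusted p = 0.385, and 0.0573 with the block). It had 9.89, 6.13 and 14.1 TPM in Plcg2+/+ and 19.3, 7.03 and 23.3 TPM in Plcg2-/-, higher in each pair but overlapping.

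Differences within pairs of equally numbered libraries set the library effect beside the genotype. The median log2 difference of the 27 genes, Plcg2-/- minus Plcg2+/+, was 0.46 for the libraries numbered 1, -0.37 for those numbered 2 and 0.07 for those numbered 3, while the median of all tested genes was 0.20, 0.20 and 0.14. It was positive for 19, 7 and 15 of the 27 genes. Higher in all 3 pairs were 7 genes (Mvk, Pmvk, Mvd, Idi1, Ggps1, Lbr and Stard4) and lower in all 3 were 5 (Cyp51, Sc5d, Dhcr7, Insig1 and Insig2), against 45.3% and 16.5% of all tested genes. Of the 7, 5 are among the 8 genes of the mevalonate arm and 1, Lbr, is a post-lanosterol enzyme. Of the 5, 3 are among the 9 post-lanosterol enzymes.

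**Figure D4:**
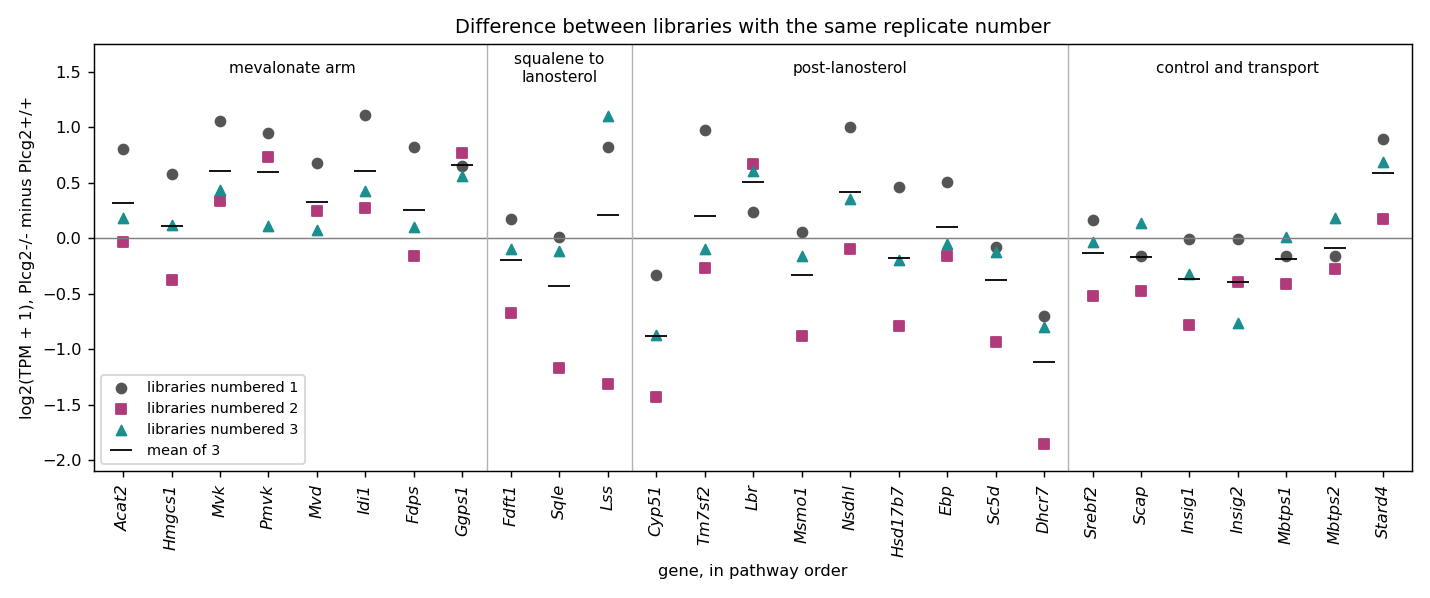
Log2 difference of TPM + 1, Plcg2-/- minus Plcg2+/+ (vertical), for each of the 27 genes (horizontal) within each pair of libraries with the same number, 1 symbol per pair, with the mean of the 3 pairs as a short line. The pair numbered 2 lies lowest for most genes, with a median of -0.37 against 0.46 for the pair numbered 1.

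Ratios within a library cancel any scaling between libraries, and the first of them sets the early against the late pathway. The ratios were chosen after the values of the genes were seen, and they are given as a description. The 8 mevalonate genes summed to 256, 177 and 423 TPM in Plcg2+/+ and 452, 188 and 475 TPM in Plcg2-/-, and the 9 post-lanosterol genes to 415, 398 and 536 TPM and 426, 210 and 436 TPM. Either sum overlapped between genotypes. Their ratio was 0.617, 0.445 and 0.789 in Plcg2+/+ and 1.06, 0.898 and 1.09 in Plcg2-/-, without overlap. The difference of the mean log2 ratios was 0.76, between 0.54 and 0.95 when any 1 library was left out and 0.63 without both libraries numbered 2. The ratio still did not overlap when Dhcr7 was left out of the sum, and it overlapped when both Dhcr7 and Cyp51 were left out, at 0.743 to 1.23 in Plcg2+/+ and 1.16 to 1.45 in Plcg2-/-. The mevalonate sum over the control and transport sum overlapped, at 0.825 to 1.51 in Plcg2+/+ and 1.25 to 1.82 in Plcg2-/-. Over the squalene to lanosterol sum it did not, at 2.82 to 4.11 and 4.13 to 6.58. Among single genes, 43.3% of all tested genes showed no overlap, in either direction. Cyp51 over Hmgcs1 was 1.32, 1.21 and 1.14 in Plcg2+/+ and 0.693, 0.566 and 0.568 in Plcg2-/-. Dhcr7 took 9.09, 13.5 and 8.08% of the summed TPM of the 27 genes in Plcg2+/+ and 4.52, 5.39 and 4.81% in Plcg2-/-. Summed over all 27 genes the level was 1061 ± 253 TPM in Plcg2+/+ and 1026 ± 391 TPM in Plcg2-/- (SD, n = 3 each), a difference smaller than the spread between libraries.

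**Figure D5:**
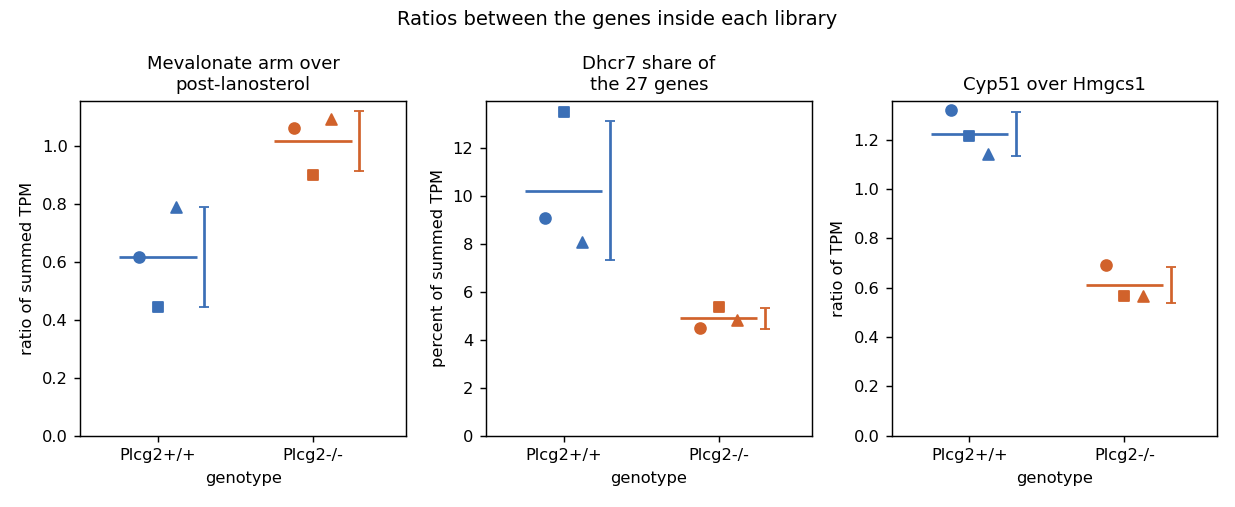
Within-library ratios (vertical, linear axes starting at 0) by genotype (horizontal), 1 point per library (circle, square and triangle for libraries numbered 1, 2 and 3), with the genotype mean as a line and ± SD (n = 3) as a bar. The mevalonate over post-lanosterol ratio is 0.445 to 0.789 in Plcg2+/+ and 0.898 to 1.09 in Plcg2-/-, and the other ratios shown are lower in Plcg2-/- without overlap.

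Genes around the pathway were read from 4 lists of 49 genes, of which 47 were tested. Of these, 10 were called higher and 1 lower (23.4%, against 20.9% of all tested genes), and after median-of-ratios scaling 4 and 6. Leaving out Plcg2+/+ 1 gave 5 higher and 0 lower calls, Plcg2+/+ 2 gave 4 and 1, Plcg2-/- 1 gave 3 and 0, and Plcg2-/- 3 gave 5 and 2, while Plcg2+/+ 3 gave 3 lower calls. The oxysterol, storage and lysosomal release list had 4 higher and 1 lower of 11 tested (45.5%, against 20.9% of all tested genes). The lower one was Hsd3b7, at means of 73.6 TPM in Plcg2+/+ and 45.1 TPM in Plcg2-/-, without overlap (limma adjusted p = 0.013). Ch25h, which makes 25-hydroxycholesterol, a sterol that blocks SREBP2 activation through INSIG, rose from 5.49, 2.84 and 11.1 TPM in Plcg2+/+ to 28.1, 33.8 and 31.7 TPM in Plcg2-/-, with a log2 fold change of 2.26 ± 0.38 (SE; limma adjusted p = 0.00953). Cyp27a1, the mitochondrial sterol 27-hydroxylase, rose from 42.3, 40.1 and 35.7 TPM to 125, 130 and 99.9 TPM, with 1.56 ± 0.14 (SE; limma adjusted p = 0.00114). In both genes the genotypes did not overlap, and the libraries numbered 2 were not low in Plcg2-/-. Stard3, a late endosomal sterol carrier, rose by 0.79 in log2 units (limma adjusted p = 0.00738). Ch25h and Cyp27a1 kept their calls in 19 of 19 alternatives and Stard3 in 18 of 19, losing it under quantile normalization (limma adjusted p = 0.0559).

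In the other lists, genes were called higher and none lower. The shares called higher were 14.3%, 12.5% and 21.4%, in the order given below. Of all tested genes, 15.6% were called higher and 5.31% lower. Of 14 isoprenoid-using genes 2 were higher, Pggt1b, a subunit of the prenyl transferase that uses the product of Ggps1 (log2 fold change 0.73, limma adjusted p = 0.0120), and Coq2, of ubiquinone synthesis (0.48, limma adjusted p = 0.0457, 0.0588 with the block and 0.159 after median-of-ratios scaling). The call of Coq2 held in 5 of 19 alternatives. Pdss1, which builds the ubiquinone side chain, did not pass (limma adjusted p = 0.0771). Of 8 electron donors and sterol binding partners, Cyb5a, cytochrome b5, was higher (0.57, limma adjusted p = 0.0213, and 0.0688 after median-of-ratios scaling). Pgrmc1 and Cyb5b did not pass (limma adjusted p = 0.146 and 0.216), though Cyb5b passed as higher with the block (limma adjusted p = 0.0376) and Pgrmc1 as lower after median-of-ratios scaling (limma adjusted p = 0.0434). Of 14 genes of sterol-regulated degradation and SREBP transport, 3 were higher: the ubiquitin ligases Rnf139 and Rnf145 (0.53 and 0.43, limma adjusted p = 0.0209 and 0.0243) and the coat protein gene Sec24c (0.44, limma adjusted p = 0.0457). All 3 lost the call after median-of-ratios scaling (limma adjusted p = 0.0856, 0.137 and 0.161). Cyb5a, Rnf139 and Rnf145 also lost it without Plcg2+/+ 1 or 2 or Plcg2-/- 1 or 3, with a limma adjusted p of at most 0.0858, and Pggt1b without Plcg2-/- 1 (limma adjusted p = 0.0549). Coq2 kept it only without Plcg2+/+ 3, and Sec24c only without Plcg2-/- 2, among the single libraries left out.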

How the data were processed

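RNA levels were deposited as TPM in a single gene table made by the authors. The submitters' processing notes name GRCm38.p6 as the build and, as tools, R 4.0.4, Salmon 1.3.0 and DESeq2 1.30.1. Annotation release, strandedness and depth are unknown here. The 12652 of 54347 genes averaging 1 TPM or more, all 27 members among them, were tested on log2(TPM + 1), which understates changes of low genes, with limma 3.58.1 in R 4.3.3 (lmFit, eBayes with trend, two-sided, no block), adjusted by Benjamini-Hochberg over all tested genes, with a threshold of 0.05. Replicate numbers come from the titles; deviations from genotype means correlated at 0.295, 0.193 and 0.147 between equally numbered libraries, all above 0.1, and the numbers therefore count as pairs: the blocked value is given where it changes a call. The labels do not say that replicates are separate animals, so p-values cover only the spread between libraries, possibly a technical one. Members and lists were chosen with earlier results of these data known. Named genes are all members, up to 3 tested genes per related list with the smallest p, and Plcg2. Hsd3b7 is also named, as the related gene called lower. Positions come from GENCODE M21 (GRCm38), where 26 of 27 identifiers matched; promoter windows come from RefSeq. Alternatives covered pseudocounts of 0.1 and 0.5, filters, scaling, the block, a Y-linked covariate and left-out libraries.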

Additional observations from a re-analysis of the deposited data

How the results depend on the processing

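Members called higher numbered 0 by limma and 1 with a mean TPM of at least 5, with the replicate block and with the block and median-of-ratios scaling, and 0 to 1 with 1 library left out. Members called lower numbered 1, but 0 with no filter and with the Y-linked covariate, 2 after quantile normalization, with the block and with the block and median-of-ratios scaling, and 0 to 1 with 1 library left out. Without both libraries numbered 2, an alternative chosen after seeing the data, Dhcr7 alone was called. All tested genes called higher numbered 1971, and 1226 with no filter, 1000 with median-of-ratios scaling, 967 under quantile normalization, 1223 without mitochondrially encoded genes, 1236 with the block and median-of-ratios scaling, 842 with the Y-linked covariate, 983 without both libraries numbered 2 and 559 to 2106 with 1 library left out. Those called lower numbered 672, and 1029 after quantile normalization, 1058 with the block and median-of-ratios scaling, 375 with the covariate, 351 without both libraries numbered 2 and 276 to 644 with 1 left out. Related genes called higher numbered 10, and 4, 3, 5, 5, 4 and 3 under median-of-ratios, quantile, mitochondria-free scaling, the block with median-of-ratios, the covariate and without both libraries numbered 2, and 3 to 10 with 1 left out. Those called lower numbered 1, and 2 with a mean TPM of at least 5, 6, 5, 2 and 5 under the 3 scalings and the block with median-of-ratios, 0 without both libraries numbered 2 and 0 to 3 with 1 left out.

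Log2 fold changes that turned sign were those of Hmgcs1 (-0.066 under median-of-ratios, with or without the block, -0.17 quantile, -0.023 mitochondria-free) and Ebp (-0.076, -0.21 and -0.032 likewise). Fdps, Lss and Tm7sf2 turned under quantile normalization (-0.022, -0.012 and -0.0089), and Hsd17b7 with the covariate (0.0072). Without both libraries numbered 2, Fdft1, Hsd17b7, Srebf2 and Mbtps2 stood at 0.037, 0.13, 0.062 and 0.010. With 1 library left out, ranges spanned 0 for Hmgcs1 (-0.18 to 0.57), Mvd (-0.032 to 0.74), Fdps (-0.0097 to 0.73), Fdft1 (-0.51 to 0.26), Sqle (-0.78 to 0.11), Lss (-0.32 to 0.96), Tm7sf2 (-0.058 to 0.58), Msmo1 (-0.54 to 0.079), Hsd17b7 (-0.43 to 0.27), Ebp (-0.0062 to 0.26), Sc5d (-0.68 to 0.030), Srebf2 (-0.27 to 0.13), Insig1 (-0.62 to 0.084) and Mbtps2 (-0.20 to 0.028). The cause of these shifts was not tested. Leaving out 1 library leaves 2 in that genotype. Depth cannot be read from TPM.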
